A study of Sus scrofa with 2 samples.

Results

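Mural cells, the cells that wrap the endothelial tube of small vessels, were taken from pig skin data as the cells in which RGS5 leads ACTA2. RGS5 encodes a regulator of G-protein signalling that is rich in pericytes, and ACTA2 encodes the actin of vascular smooth muscle. A cell was a member when it held at least 5 RGS5 UMIs and more RGS5 than ACTA2 UMIs, with COL1A1, COL1A2 and COL3A1 together under 2% and KRT5 under 0.3% of its UMIs. A UMI is a unique molecular identifier, which counts each captured transcript once. The rule gave 115 of 2775 fresh cells and 188 of 4223 cryopreserved cells, 303 of 6998 in all. They are called RGS5-leading mural cells here, because the RGS5 and ACTA2 counts themselves chose them.

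Full-thickness dorsal skin of young male farm pigs was dissociated with enzymes, and dead cells were removed by sorting or, as the labels add, by magnetic beads, before droplet-based scRNA-seq of single cells. The fresh library has no treatment in its labels, and the frozen library came from cells stored in serum with DMSO in liquid nitrogen and thawed, called cryopreserved below. The pigs' exact age and whether both libraries came from 1 animal are not given in the sources used here, and the extraction protocol attached to both samples describes freezing. With 1 library per condition, no spread between samples could be estimated, so nothing below is a test, and the intervals are exact 95% intervals that cover counting error only.

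Pericytes lie within the basement membrane of capillaries and venules, while smooth muscle cells ring arterioles. Endothelial cells attract and hold mural cells through PDGF-B acting on the receptor PDGFRB and Notch ligands acting on NOTCH3, and mural cells signal back through angiopoietin acting on TEK. PDGFRB and NOTCH3 are receptors of mural cells, while TEK is the endothelial receptor of angiopoietin made by mural cells. Contractile proteins rise from capillary pericytes to arteriolar muscle.

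Cells within the study's maxima of 4500 genes, 30000 UMIs and 10% mitochondrial UMIs were used. Members were 4.14% (interval 3.43 to 4.95%) of the fresh and 4.45% (3.85 to 5.12%) of the cryopreserved cells, and these intervals overlap. The comparison group, ACTA2-leading mural cells, held at least 5 ACTA2 UMIs, at least as many ACTA2 as RGS5 UMIs, and the same collagen and KRT5 limits, and counted 117 fresh and 136 cryopreserved cells. Members therefore made up 49.6% (43.0 to 56.2%) of the fresh and 58.0% (52.4 to 63.5%) of the cryopreserved mural cells by these rules. The members' summed counts hold 922442 fresh and 1021071 cryopreserved UMIs, and levels below are CPM, the usual scaling of a gene's UMIs by the total UMIs of such a sum. The libraries shared 6 barcodes, and 0 of these belonged to members in both libraries.

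A fresh member held a median of 33 RGS5 UMIs (lowest 5, highest 133) and 8 ACTA2 UMIs (0 to 47). A cryopreserved member held 21.5 RGS5 UMIs (5 to 69) and 6 ACTA2 UMIs (0 to 48). The lower counts went with lower depth, since the median member had 7585 UMIs (825 to 20149) fresh and 5194 (589 to 17024) cryopreserved. As a share of the cell's UMIs, the RGS5 median was 0.449% and 0.463%, so the libraries lay close on that scale. ACTA2 was at 0 UMIs in 18 fresh and 26 cryopreserved members, and 85 fresh and 72 cryopreserved ACTA2-leading cells also held at least 5 RGS5 UMIs. The border between the groups is thus a cut through a range: RGS5 led by only 1 to 3 UMIs in 4 fresh and 23 cryopreserved members, and ACTA2 was level or ahead by up to 2 UMIs in 11 and 17 cells with at least 5 RGS5 UMIs. At the other limit, 2 fresh and 3 cryopreserved members held exactly 5 RGS5 UMIs, and 1 and 6 cells with 4 RGS5 UMIs met all else.

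**Figure D1:**
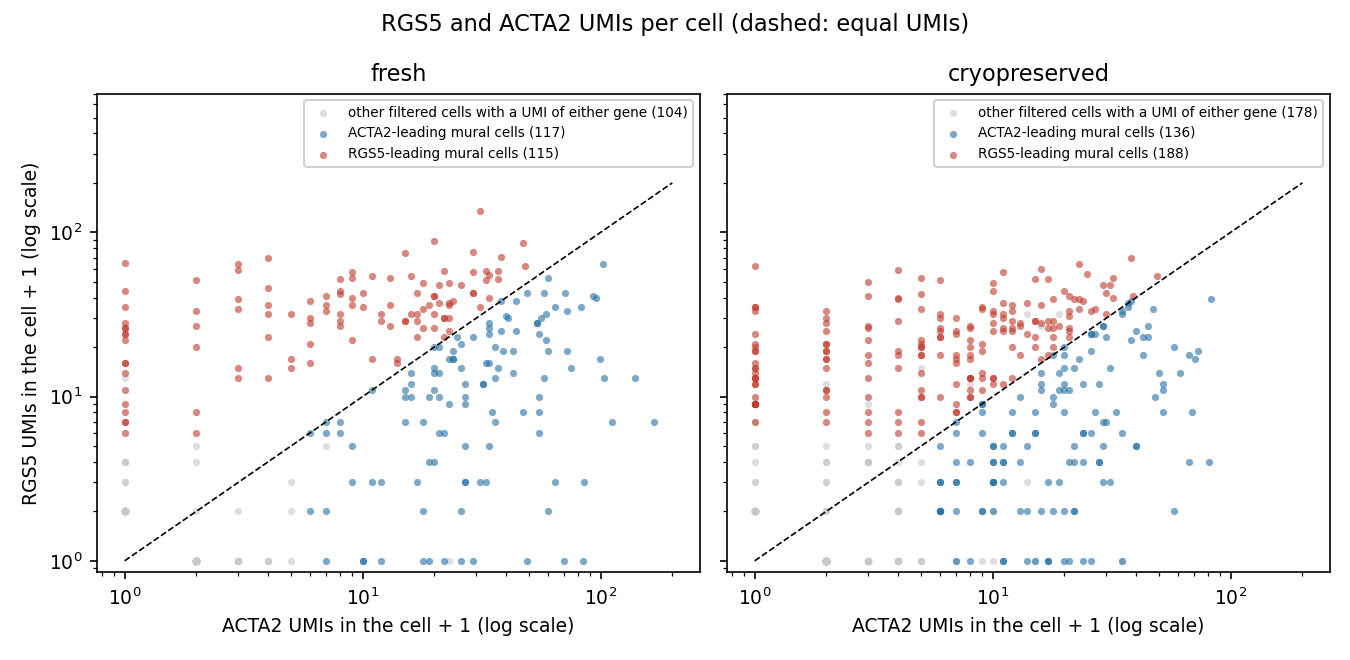
RGS5 UMIs against ACTA2 UMIs in each filtered cell with a UMI of either gene, each plus 1, on log axes, for the fresh (left) and cryopreserved (right) library. Points are cells, and the dashed line marks equal counts. The 115 fresh and 188 cryopreserved members fill the area above the line without a gap to the ACTA2-leading cells below it.

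The other genes named for mural cells mostly went with the label. In the members, the receptor PDGFRB was at 641 CPM fresh and 780 CPM cryopreserved, NOTCH3 at 354 and 433 CPM, the adhesion molecule MCAM at 492 and 511 CPM, and the gap junction gene GJA4 at 729 and 953 CPM. KCNJ8, the pore subunit of a vascular potassium channel, was at 413 and 348 CPM. All of these were at least 2-fold above the remaining filtered cells in both libraries. Of the 24 genes in the mural and pericyte list, 23 had enough UMIs for that comparison and 15 passed 2-fold in both libraries, where 9.25% of all 13080 genes did. RGS5 is one of these 15 and was used by the rule. ANPEP, CD248 and STEAP4 went the other way, 3 of 23 at least 2-fold lower in both libraries, where 13.5% of all genes were.

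Detection in single cells set the members apart from fibroblasts, but not from the ACTA2-leading mural cells for every gene. After thinning each cell to 2000 UMIs, which left out 3 fresh and 8 cryopreserved members, NOTCH3 was seen in 49.1% and 53.3% of members (81.7% and 81.9% before thinning), and in 6.56% and 5.69% of fibroblasts (22.6% and 20.4%). GJA4 was seen in 64.3% and 59.4% of thinned members (82.6% and 75.5% before), and in 0 fresh and 0.0759% of cryopreserved thinned fibroblasts (0.110% and 0.298% before). For KCNJ8 the thinned shares were 39.3% and 41.7% in members (75.7% and 63.3% before), against 1.22% and 2.28% in fibroblasts (8.0% and 9.69%). In thinned ACTA2-leading cells the shares were 51.7% and 50.7% for NOTCH3, 50.9% and 50.7% for GJA4 and 15.5% and 20.9% for KCNJ8 (86.3% and 75.7%, 71.8% and 62.5%, and 43.6% and 40.4% before), from median depths of 8269 and 5541.5 UMIs. NOTCH3 and GJA4 were thus seen in both kinds of mural cell. Fibroblasts, here cells with at least 2% of UMIs on the 3 collagen genes and under 5 RGS5 UMIs, had median depths of 14319 and 10682 UMIs, above the 7585 and 5194 UMIs of the members.

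Some genes often used to mark pericytes were at or near 0 in the members. ABCC9, the regulatory partner of the KCNJ8 channel, had 4 fresh and 2 cryopreserved UMIs over all members. STEAP4 had 2 and 0 UMIs, the aminopeptidase ANPEP 1 and 3, and the receptor P2RY14 2 and 6. CSPG4, the proteoglycan NG2, was at 31.4 and 30.4 CPM, against 89.2 and 71.0 CPM in ACTA2-leading cells, and so was lower in the members. The cells are named by the leading gene of the rule, and whether they are pericytes was not tested.

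Defining markers of other skin cells were mostly low, with the exception of CD74, the collagen genes and, in cryopreserved members, keratinocyte genes. The 3 collagen genes limited by the rule made up a median of 0.168% and 0.143% of a member's UMIs. In fibroblasts, chosen by these genes, the medians were 7.95% and 8.58%. The fibroblast gene DCN was at 14.1 and 3.92 CPM in the members and at 5477 and 5254 CPM in fibroblasts, and PDGFRA had 2 UMIs in each library. The 10 blood endothelial genes summed to 267 and 105 CPM, led by FLT1 at 114 and 59.7 CPM, and VWF had 23 UMIs over fresh and 0 over cryopreserved members. The 10 leukocyte genes summed to 1001 and 1375 CPM, of which CD74 made up 941 and 1322 CPM, while CD163 and CD207 were at 0. The 5 melanocyte genes had 1 UMI in each library, and the Schwann cell list summed to 36.9 and 43.1 CPM, nearly all from NCAM1. The 7 keratinocyte genes summed to 141 CPM in fresh and 1052 CPM in cryopreserved members, and a single cell held 75% of the latter, with KRT10 at 498 CPM the most abundant. For red cells only HBB was seen, at 124 and 200 CPM, with HBM and ALAS2 at 0. The 5 lymphatic endothelial genes had 7 and 18 UMIs, the 4 mast cell genes 23 and 7 UMIs, and the skeletal muscle and fat list was almost all FABP4, at 69.4 and 104 CPM. The part that such RNA plays in the results was not tested, and the main counts below are also given without the 6 fresh and 8 cryopreserved members that held at least 30 UMIs of other lineages or at least 10 UMIs of division genes.

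Against the ACTA2-leading cells, the members held similar or higher levels of the mural receptors, more of KCNJ8, LAMC3, NID1, HIGD1B and NDUFA4L2, and less of the contractile set. Of 5129 genes with at least 100 UMIs in the mural sums, 83 (1.62%) were at least 2-fold higher in the members in both libraries and 55 (1.07%) at least 2-fold lower. Because the rule used RGS5 and ACTA2, these counts describe the split and support nothing. The median log2 ratio over all 5129 genes was 0.02 fresh and 0.03 cryopreserved. Leaving out the cells with other-lineage or division UMIs gave 75 higher and 58 lower genes of 4825 compared. Of the mural list, 16 genes could be compared, 14 were above the ACTA2-leading cells in both libraries (34.3% of all genes were), 4 passed 2-fold upward and 1, CSPG4, downward. The list's median log2 ratio was 0.37 and 0.39, and RGS5 was 1 of the 4, chosen by the rule.

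The other 3 mural genes past 2-fold were KCNJ8, HIGD1B and NDUFA4L2. With at least 10 RGS5 UMIs in members and at least 10 ACTA2 UMIs in ACTA2-leading cells, 3 of the 16 listed genes passed upward. KCNJ8 was no longer among those that passed. With the leading gene at least 2 times the other in both groups, 4 of 15 passed upward. KCNJ8 was at 413 CPM in fresh members and 119 CPM in fresh ACTA2-leading cells, and at 348 and 165 CPM in the cryopreserved library, with log2 ratios of 1.80 (interval 1.49 to 2.11) and 1.08 (0.78 to 1.38). HIGD1B, which encodes a small membrane protein of the hypoxia-inducible domain family, was at 93.2 against 39.0 CPM fresh and 167 against 29.2 CPM cryopreserved. NDUFA4L2, an isoform of a respiratory chain subunit that hypoxia induces, was at 143 against 54.3 CPM fresh and 320 against 38.0 CPM cryopreserved. In all of these the members' level exceeded that of the ACTA2-leading cells in both libraries by more than the counting intervals. COX4I2, the lung isoform of a cytochrome oxidase subunit, leaned the same way without reaching 2-fold, at 236 against 176 CPM and 301 against 161 CPM. The ubiquitous counterparts were not higher in both libraries, with NDUFA4 at 78.1 against 123 CPM and 113 against 131 CPM, and COX4I1 at 297 against 292 CPM and 336 against 391.8 CPM. Over the 7 listed isoforms, 2 passed 2-fold upward and 0 downward (1.62% of all genes passed upward and 1.07% downward). Of the 7, 3 were above and 3 below the ACTA2-leading cells in both libraries (34.3% and 29.6% of all genes). The list's median log2 ratio was 0.02 fresh and -0.21 cryopreserved.

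The contractile list lay lower in the members but far above other skin cells. Of its 22 genes, 21 were found and 18 could be compared, 16 of them were below the ACTA2-leading cells in both libraries, 4 by at least 2-fold, and 0 were 2-fold higher. The median log2 ratio was -0.96 for fresh and -0.70 for cryopreserved cells. Over all genes, 29.6% were below in both libraries and 1.07% by at least 2-fold. Under TMM or DESeq2 size factors 5 genes passed 2-fold, and with cells kept only where one gene was at least 2 times the other, 9 of 17 did. TAGLN, an actin-binding protein of smooth muscle, was at 2281 against 4028 CPM fresh and 2481 against 4853 CPM cryopreserved. MYH11, the smooth muscle myosin heavy chain, was at 964 against 1905 CPM and 1112 against 1733 CPM. CNN1, calponin, had a wider gap, at 82.4 against 335 CPM and 143 against 406 CPM. SORBS2, a scaffold of the contractile cytoskeleton, was at 41.2 against 269 CPM and 44.1 against 228 CPM, and ACTG2, the enteric actin, at 55.3 against 217 CPM and 48.0 against 183 CPM. ACTA2, the fourth gene past 2-fold, was part of the rule.

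SYNPO2 was the listed gene above the ACTA2-leading cells in both libraries, at 1207 against 1168 CPM and 1157 against 910 CPM, the former within counting error. CALD1, caldesmon, also differed little, at 1145 against 1218 CPM and 1105 against 1137 CPM. Compared with the remaining filtered cells, 16 of the 18 contractile genes were at least 2-fold higher in the members in both libraries, where 9.25% of all genes were. The members thus carried contractile transcripts well above other skin cells and below ACTA2-leading cells. MYL9 had 0 and 5 UMIs in the members and 5 and 4 in the ACTA2-leading cells, too few for a level.

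The 250 bases before the gene start of RGS5 are shown because this gene defines the cells. They were searched on both strands for the CArG box, the binding sequence of serum response factor known from smooth muscle genes, and a match would stand in capitals. The sequence was read from the RefSeq annotation of Sscrofa11.1 on the plus strand, chr4:87286703-87286952.
RGS5: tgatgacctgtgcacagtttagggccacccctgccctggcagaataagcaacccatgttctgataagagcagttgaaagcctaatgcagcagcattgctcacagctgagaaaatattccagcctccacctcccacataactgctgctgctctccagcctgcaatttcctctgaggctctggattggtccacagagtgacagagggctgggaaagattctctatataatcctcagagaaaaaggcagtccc

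The RGS5 window held 0 boxes. Over the 19572 protein-coding genes on chromosomes, 257 such windows (1.31%) held a box. No match says only that the letters are not in this window.

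**Figure D2:**
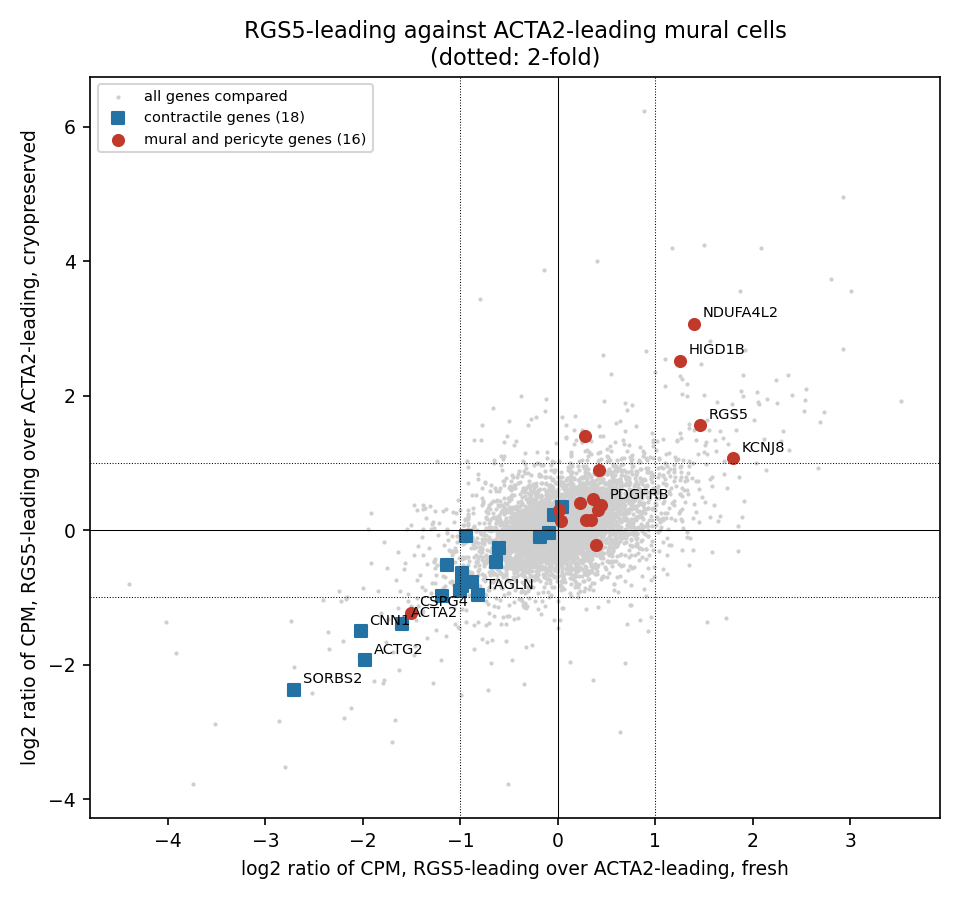
Log2 ratio of CPM of RGS5-leading over ACTA2-leading mural cells in the fresh (x axis) and cryopreserved (y axis) library. Grey points are the genes compared, red circles the 16 mural and pericyte genes, blue squares the 18 contractile genes, and dotted lines mark 2-fold. In the lower left fall 16 of 18 contractile genes, and in the upper right 14 of 16 mural genes.

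By the rule for named genes, which took the 10 highest and 10 lowest genes by the smaller of both ratios, the highest were SULF2, SLA-DQB1, SPOCK1, UNC5D, CXCR4, PTPRT, ANO3, SLA-DRA, FAM162B and CCDC141. UNC5D, a netrin receptor, was at 446 against 58.4 CPM fresh (7.62-fold, interval 5.77 to 10.2) and 453 against 69.7 CPM cryopreserved (6.5-fold, 4.91 to 8.77). SULF2, an enzyme that trims sulfate from heparan sulfate, was at 82.4 against 10.3 CPM and 74.4 against 6.34 CPM. SPOCK1, a matrix proteoglycan, was at 85.6 against 12.3 CPM and 84.2 against 6.34 CPM. CXCR4, the receptor of the chemokine CXCL12, was at 36.9 against 7.18 CPM and 62.7 against 12.7 CPM. PTPRT, a receptor phosphatase, was at 343 against 72.8 CPM and 220 against 46.9 CPM, and ANO3, of the anoctamin family, at 281 against 48.2 CPM and 216 against 50.7 CPM. In each of these the members stood above the ACTA2-leading cells in both libraries, and no cell held more than 17.6% of the members' UMIs.

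SLA-DQB1 and SLA-DRA, which encode class II antigen presentation proteins, rested on few cells. For SLA-DQB1, 1 fresh member held 80.6% and 1 cryopreserved member 92.5% of the members' UMIs. Without the cells with other-lineage or division UMIs, the log2 ratio of SLA-DRA went from 2.08 to 0.76 fresh and from 4.20 to 0.56 cryopreserved. SLA-DRA was among the genes that picked the cells left out, so part of this drop is by construction.

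The lowest genes were PPP1R14A, GPC6, THBS1, MFAP4, SLC24A3, SORBS2, COL14A1, ARHGAP28, CCN3 and ACTG2. PPP1R14A, an inhibitor of myosin phosphatase that favours contraction, was at 6.5 against 87.1 CPM fresh (13.4-fold lower) and 4.90 against 67.2 CPM cryopreserved (13.7-fold lower). THBS1, thrombospondin, was at 44.4 against 323 CPM and 41.1 against 295 CPM. ARHGAP28 was at 51.0 against 221 CPM and 30.4 against 190 CPM. MFAP4, a protein of elastic fibres, was at 20.6 against 143 CPM and 12.7 against 146 CPM. The members were lower in both libraries for all 10.

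Against all other filtered cells, 1210 of 13080 genes were at least 2-fold higher in both libraries, the 9.25% given above. Led by the smaller ratio, the highest included UNC5D, FAM162B, ANO3, RGS5, HIGD1B, CNGA3, ENSSSCG00000048712, KCNJ8 and MAP3K7CL. The other filtered cells include the ACTA2-leading cells. UNC5D was at 3.32 and 3.93 CPM there, 134-fold and 116-fold below the members. CNGA3, a channel opened by cyclic nucleotides, was at 139 and 110 CPM in members and 2.52 and 1.71 CPM in other cells. MAP3K7CL differed little between the kinds of mural cell, at 52.0 against 42.0 CPM and 62.7 against 44.4 CPM, and so set mural cells apart from the rest more than it set the members apart from ACTA2-leading cells.

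Of the signals that pass between endothelium and mural cells, PDGFRB, NOTCH3, ANGPT1, ANGPT2 and PDGFA were higher in the members, and TEK, DLL4 and PDGFB higher in endothelium. For this the endothelial cells were those with at least 3 UMIs of VWF, PECAM1 and CDH5, at least 2 of these from VWF and CDH5, under 5 RGS5 UMIs, and no PROX1, C1QA or C1QB UMI, 162 fresh and 198 cryopreserved cells. PDGFB was at 114 and 187 CPM in them and at 78.1 and 86.2 CPM in the members, so the members held some ligand transcript too. PDGFRB had 3 and 0 UMIs in endothelium. PDGFA, a ligand of the receptor PDGFRA, was at 505 and 538 CPM in the members and at 2.93 and 4.88 CPM in endothelium, and PDGFRA was at 2 UMIs in each library in members and, in fibroblasts, at 498 and 427 CPM. Of the 4 PDGF genes that could be compared with ACTA2-leading cells, 0 passed 2-fold in either direction (1.62% of all genes passed upward and 1.07% downward).

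The Notch ligand DLL4 was at 74.1 and 64.4 CPM in endothelium and at 4.34 and 3.92 CPM in members, while JAG1 was at 297 and 310 CPM in members and 229 and 248 CPM in endothelium. NOTCH3, the mural receptor, had 0 and 1 UMI in endothelium. HEYL, a Notch target, was at 310 and 287 CPM in members and 233 and 242 CPM in ACTA2-leading cells, and HES1, another target, was lower in members, at 80.2 against 134 CPM and 115 against 222 CPM. Of 10 Notch genes compared, 0 passed 2-fold in either direction (1.62% of all genes passed upward and 1.07% downward), and the list's median log2 ratio was 0.03 and 0.09.

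ANGPT1, the ligand that activates TEK, was at 227 against 99.4 CPM in fresh and 191 against 97.6 CPM in cryopreserved members and ACTA2-leading cells, 1.19 (interval 0.83 to 1.55) and 0.97 (0.58 to 1.37) on the log2 scale. The cryopreserved ratio is just under 2-fold, so ANGPT1 is not among the 83 genes. ANGPT2, which can oppose it, was at 425 against 343 CPM and 353 against 318 CPM. The receptor TEK was at 166 and 144 CPM in endothelium and had 2 and 0 UMIs in members. Of the TGF beta genes, 7 were compared and 2 passed 2-fold downward, where 1.07% of all genes did, TGFB2 at 65.0 against 176 CPM and 64.6 against 141 CPM, and the latent binding protein LTBP1 at 45.5 against 105 CPM and 16.6 against 63.4 CPM. TGFB3 leaned lower too, at 461 against 774 CPM and 428 against 692 CPM.

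**Figure D3:**
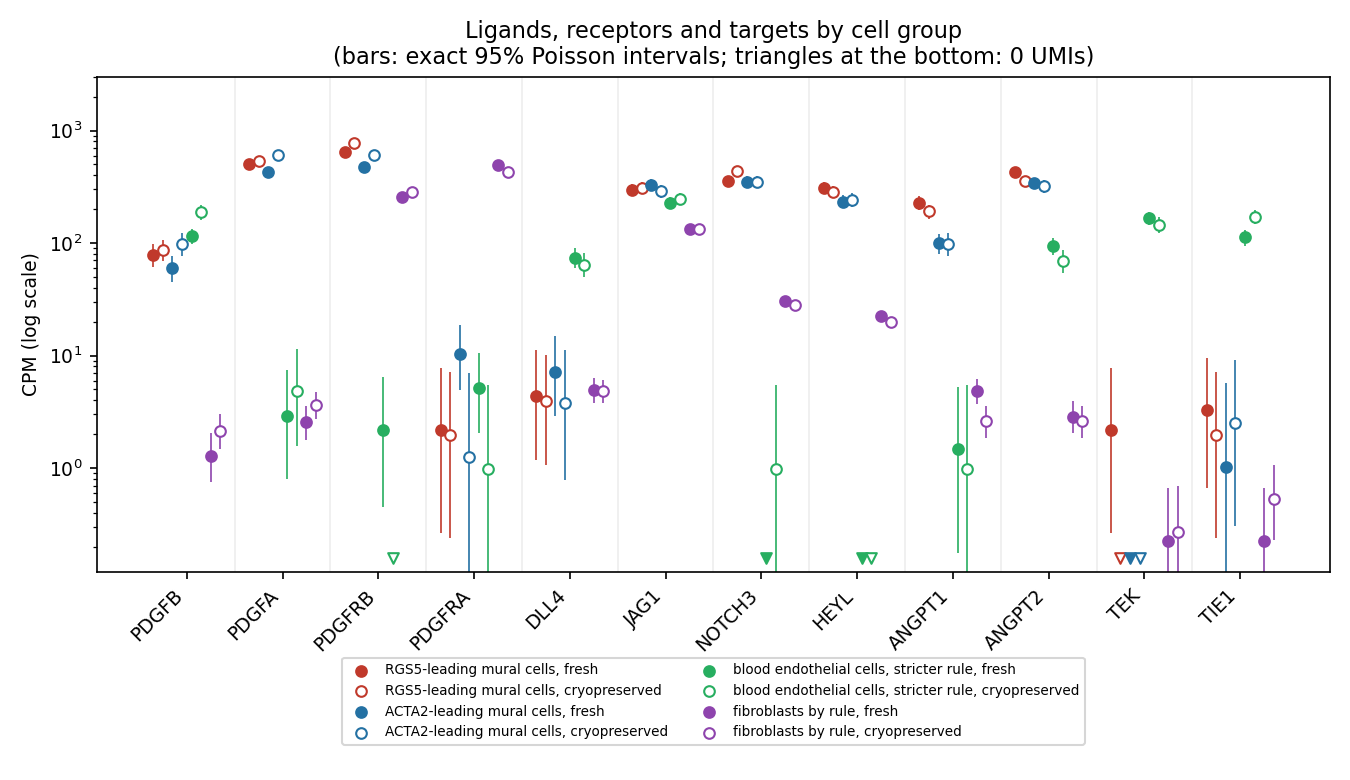
CPM on a log axis of PDGF, Notch and angiopoietin genes in 4 cell groups, with filled points for the fresh and open points for the cryopreserved library, and bars for exact 95% Poisson intervals. Triangles at the bottom mark 0 UMIs. PDGFRB, NOTCH3, HEYL, ANGPT1 and ANGPT2 stand high in both kinds of mural cell, and TEK, TIE1 and DLL4 in endothelium.

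Among basement membrane genes, 14 were compared, and 2 passed 2-fold upward, where 1.62% of all genes did, and 0 downward. LAMC3, a laminin gamma chain, was at 298 against 51.3 CPM fresh and 239 against 62.1 CPM cryopreserved, log2 ratios of 2.54 (interval 2.10 to 3.0) and 1.94 (1.5 to 2.42). NID1, nidogen, was at 178 against 44.1 CPM and 142 against 45.6 CPM. COL4A1, a collagen IV chain, was at 1483 against 996 CPM and 1835 against 1383 CPM. LAMC1, the common gamma chain, stayed close, at 1018 against 950 CPM and 968 against 912 CPM. Of these laminin chains, LAMC3 and not LAMC1 set the members apart.

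Among receptors and channels for vasoactive signals, 11 genes were compared, and 1 passed 2-fold upward, KCNJ8, and 1 downward, ADORA2A (1.62% of all genes passed upward and 1.07% downward). With at least 10 UMIs of the leading gene in both groups, 0 of 10 passed upward and 1 downward. With the leading gene at least 2 times the other in both groups, 2 of 10 passed upward and 0 downward. EDNRB, an endothelin receptor, was at 488 against 275 CPM and 510 against 378 CPM, and EDNRA, the receptor typical of smooth muscle, was at 168 against 158 CPM and 133 against 152 CPM. P2RX1, an ATP-gated channel, was at 300 against 238 CPM and 362 against 287 CPM. ADORA2A, an adenosine receptor, was at 15.2 against 42.0 CPM and 24.5 against 81.1 CPM. The adrenergic receptor genes ADRA2A and ADRA2C had 0 UMIs in every cell group of both libraries given here. Of the RGS family, 5 genes were compared, and RGS5 itself was the 1 past 2-fold. RGS16 was at 1239 against 1119 CPM and 1692 against 1172 CPM.

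Chemokine transcripts were abundant in the members. CXCL2, which draws neutrophils, was at 10499 against 5738 CPM fresh and 12710 against 7576 CPM cryopreserved. CCL2, which draws monocytes, was at 6897 against 5784 CPM and 9624 against 10904 CPM, so the direction differed between the libraries. VCAM1, an adhesion molecule for leukocytes, was at 1310 against 774 CPM and 1010 against 765 CPM. IL6 was at 1770 against 1823 CPM fresh and 1146 against 2879 CPM cryopreserved, and was seen in 43.5% and 35.6% of members (36.6% and 30.6% thinned, against 12.1% and 15.0% of thinned fibroblasts and 25.4% and 27.4% unthinned). Of 10 genes compared, 2 were above and 5 below the ACTA2-leading cells in both libraries (34.3% and 29.6% of all genes), with median log2 ratios of 0.11 fresh and -1.03 cryopreserved. At 2-fold in both, 0 were higher and 1 lower (1.62% of all genes passed upward and 1.07% downward). The latter was CXCL10, on 2 fresh and 20 cryopreserved member UMIs, with 89.6% of the fresh ACTA2-leading UMIs in 1 cell.

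Within the members, 12 of 17 contractile genes compared (ACTA2 left out), TAGLN, MYH11, CNN1 and TPM2 among them, were lower in each higher range of the RGS5 share in both libraries, beside 6.81% of 5127 genes. The exceptions were SMTN, SYNPO2, ACTN1, CALD1 and SORBS2. SORBS2 was at 49.1, 3.80 and 69.2 CPM over the fresh and 73.5, 13.6 and 7.81 CPM over the cryopreserved ranges, and 1 cell held 39.5% of its fresh member UMIs. The share of RGS5 in the cell's RGS5 and ACTA2 UMIs was cut at 0.75 and 0.9, which gave 51, 34 and 30 fresh and 93, 44 and 51 cryopreserved members. Since the cuts use the genes of the rule, this is a description, and 14 fresh and 33 cryopreserved members lie within 0.05 of the lower cut and 20 and 26 within 0.05 of the upper. TAGLN went from 3246 to 1886 to 947 CPM in the fresh and from 3276 to 1956 to 1241 CPM in the cryopreserved members. MYH11 went from 1424 to 786 to 316 CPM and from 1484 to 1035 to 386 CPM. CNN1 went from 152 to 30.4 to 13.0 CPM and from 242 to 49.9 to 11.7 CPM, the last on 3 UMIs in each library.

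The mural genes varied more in their course. PDGFRB was at 550, 782 and 649 CPM over the fresh ranges and 667, 926 and 894 CPM over the cryopreserved ones. KCNJ8 was at 297, 452 and 584 CPM and at 250, 449 and 468 CPM. UNC5D was at 465, 391 and 471 CPM and at 373, 653 and 453 CPM, all well above the 58.4 and 69.7 CPM of ACTA2-leading cells. NOTCH3 was at 416, 323 and 277 CPM and at 461, 486 and 328 CPM, lowest in the top range of both libraries. Median UMIs per cell were 8016, 7236 and 7711 over the fresh and 5516, 4776 and 4439 over the cryopreserved ranges, and depth was thus lower in the upper cryopreserved ranges.

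**Figure D4:**
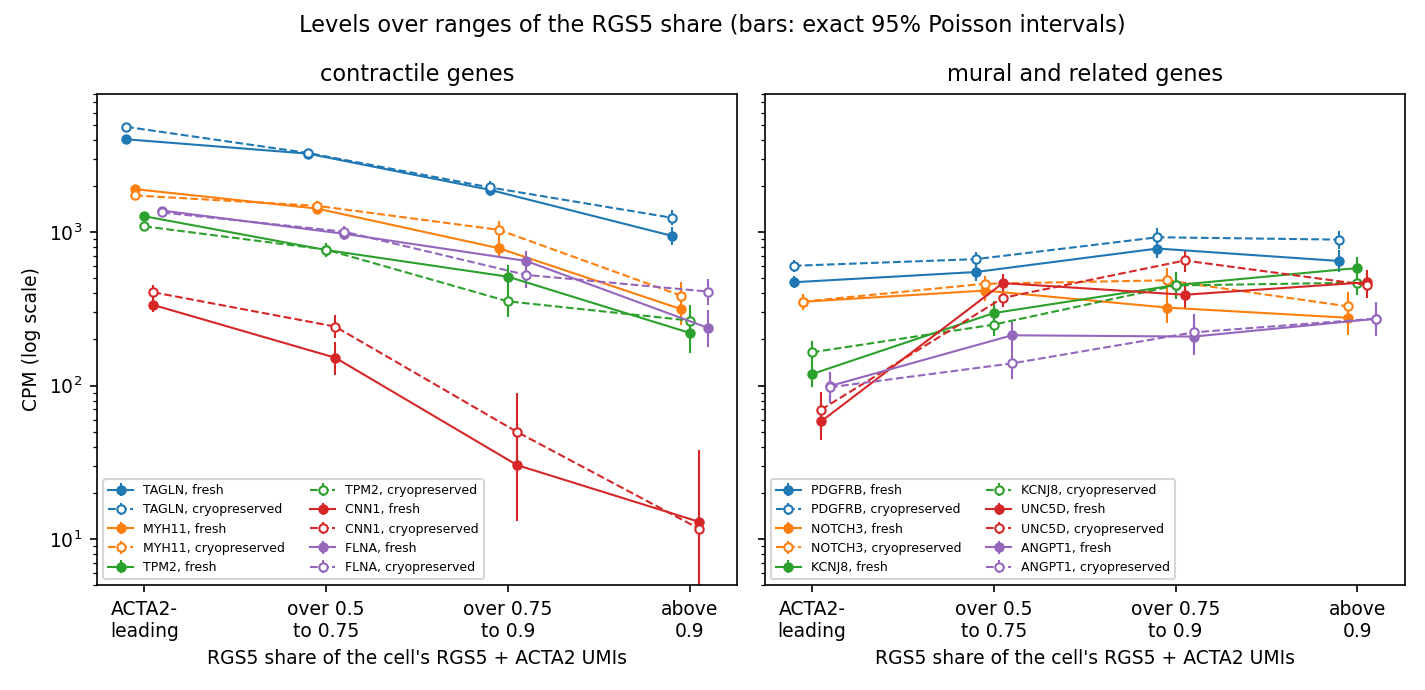
CPM on a log axis in ACTA2-leading cells and in 3 ranges of the RGS5 share of RGS5 and ACTA2 UMIs, for 5 contractile genes (left) and 5 mural and related genes (right). Solid lines and filled points are fresh, dashed lines and open points cryopreserved, and bars are exact 95% Poisson intervals. TAGLN, MYH11 and CNN1 are lower in each range from left to right, while UNC5D is at 58.4 and 69.7 CPM in ACTA2-leading cells and above 370 CPM in each range of the members.

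Between the cryopreserved and fresh members, most genes lay close. Of 3480 genes with at least 100 UMIs in the members, 79 (2.27%) differed at least 2-fold, 46 higher and 33 lower in the cryopreserved library, with a median log2 ratio of -0.07 and a median size of 0.25. In ACTA2-leading cells 69 of 3178 genes (2.17%) did. RGS5 itself was at 4435 and 4372 CPM. Much of the count rested on few cells: without the cells with other-lineage or division UMIs, 22 of 3215 genes were higher and 15 lower. Of these, 17 and 12 were among the 46 and 33. UBE2C, KRT10 and SLA-DRB1 were among the genes that picked the cells left out, so part of this drop is by construction.

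The 5 genes with the largest ratio upward were UBE2C, KRTDAP, SLA-DRB1, KRT10 and HMGB2. UBE2C, a ubiquitin-conjugating enzyme of mitosis, had 0 fresh and 151 cryopreserved UMIs, at least 45.5-fold higher against the floor of 3 counts in the fresh sum, and 1 cell held 41.7% of them. Division genes reached at least 10 UMIs in 4 of 188 cryopreserved members (2.13%, interval 0.583 to 5.36%) and in 0 of 115 fresh members, which allows a share of up to 2.61% by the floor of 3 counts and 3.16% by the exact interval. A difference in dividing members was thus not detectable at this number of cells. KRTDAP and KRT10 are keratinocyte genes, and 1 cell held 88.3% and 78.0% of their cryopreserved UMIs. For SLA-DRB1 1 cell held 97.3%.

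The 5 genes with the largest ratio downward were PTGS2, PDZRN4, PRMT2, ND3 and MARCHF3. PTGS2, the inducible enzyme of prostaglandin synthesis, was at 249 CPM fresh and 37.2 CPM cryopreserved (6.70-fold lower), with 20.9% and 18.4% of its UMIs in 1 cell. In ACTA2-leading cells PTGS2 was at 195 and 175 CPM. PRMT2, an arginine methyltransferase, went from 93.2 to 15.7 CPM and in ACTA2-leading cells from 74.8 to 11.4 CPM. ND3, a mitochondrial subunit of complex I, went from 504 to 90.1 CPM and in ACTA2-leading cells from 632 to 120 CPM. PRMT2 and ND3 were thus lower in both kinds of mural cell, and also in the other cells, where ND3 was at 860 and 166 CPM. For PDZRN4, 1 fresh cell held 98.3% of the UMIs, and for MARCHF3 39.4%.

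Many immediate early genes, which cells switch on within minutes of a stimulus, were at higher levels in the cryopreserved members, and the list that holds them also holds chaperones. Of 20 genes compared, 19 were above 0 on the log2 scale, with a median of 0.48, where 41.7% of all 3480 genes were above 0. FOS and EGR1 were the 2 at least 2-fold higher, beside 46 of all 3480 genes. In ACTA2-leading cells 8 of 20 were above 0, with a median of -0.08, where 43.1% of all 3178 genes were above 0. FOS was at 390 CPM in fresh and 945 CPM in cryopreserved members, and at 1018 and 933 CPM in ACTA2-leading cells. EGR1 was at 69.4 and 159 CPM in members, with 35.9% of the fresh UMIs in 1 cell, and 239 and 179 CPM in ACTA2-leading cells. FOSB was at 182 and 318 CPM in members and 479 and 342 CPM in ACTA2-leading cells, and ZFP36, which destabilises cytokine mRNAs, at 1828 and 2918 CPM and 1800 and 1752 CPM. In the fresh library the members lay below the ACTA2-leading cells for FOS, FOSB and EGR1, and in the cryopreserved library the levels of FOS, FOSB and EGR1 lay close. Whether the difference between the kinds of mural cell goes beyond the spread of samples was not tested. After thinning, FOS was seen in 33.0% of fresh and 60.6% of cryopreserved members (73.9% and 82.4% before), against 63.3% and 58.8% of fibroblasts (86.9% and 81.1% before). Without the cells with other-lineage or division UMIs, 18 of 20 were above 0, with a median of 0.43, and the count was 17 of 20 with at least 10 RGS5 UMIs and 15 of 19 with RGS5 at least 2 times ACTA2. The chaperones HSPA8, at 333 and 338 CPM, and HSP90AA1, at 737 and 715 CPM, differed by less than counting error in the members. The cold response gene RBM3 was at 177 and 227 CPM in members and 171 and 221 CPM in ACTA2-leading cells.

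**Figure D5:**
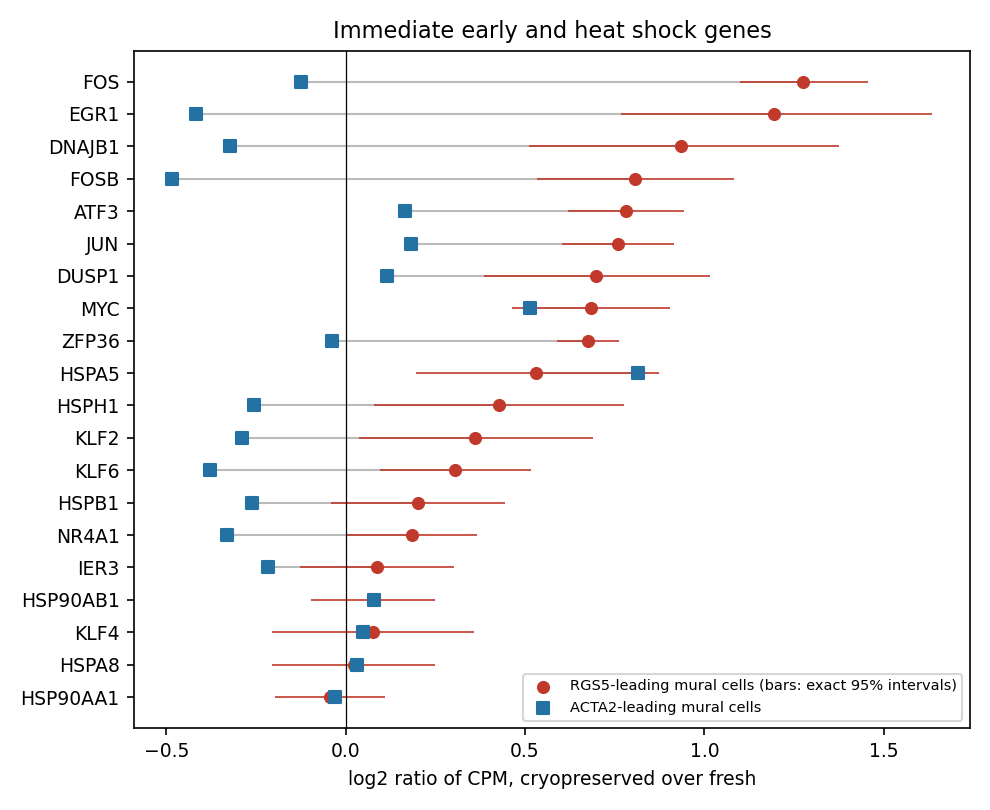
Log2 ratio of CPM, cryopreserved over fresh, for 20 immediate early and heat shock genes in RGS5-leading (red circles, with exact 95% intervals) and ACTA2-leading mural cells (blue squares). In the members 19 of 20 are above 0, led by FOS at 1.28 and EGR1 at 1.19, while the ACTA2-leading cells scatter on both sides of 0.

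NDUFA4L2 and HIGD1B also lay higher in the cryopreserved members, with log2 ratios of 1.16 (interval 0.87 to 1.47) and 0.85 (0.46 to 1.24), and all 6 isoforms of their list that could be compared were above 0, with a median of 0.44, beside the 41.7% of all genes. In ACTA2-leading cells NDUFA4L2 was at 54.3 and 38.0 CPM and HIGD1B at 39.0 and 29.2 CPM, each on under 100 UMIs and with overlapping intervals, and the same 6 isoforms had a median of -0.02 there. Of the 4 with enough UMIs in those cells, 3 were above 0, with a median of 0.26 (43.1% of all genes were above 0). The 13 mitochondrial protein genes summed to 27080 and 31035 CPM in the members. Of 12 compared, 10 were above 0, with a median log2 ratio of 0.23, beside the 41.7% of all genes. In ACTA2-leading cells 8 of 12 were above 0, with a median of 0.11, beside 43.1%. ND4L was the 1 gene at least 2-fold higher, at 45.5 and 119 CPM, and ND3 the 1 at least 2-fold lower. Chemokine genes had a median log2 ratio of -0.34, with 3 of 8 above 0 beside the 41.7% of all genes, and in ACTA2-leading cells 0.66, with 8 of 9 above 0 beside 43.1%. In the members CCL2, CXCL2 and CSF1 were higher and IL6, VCAM1, ICAM1, CCL19 and CSF3 lower, and for CCL19 and CSF3 1 fresh cell held 66.2% and 72.2% of the UMIs. The contractile list had a median of 0.05, with 8 of 15 genes above 0, and the mural list 0.27, with 11 of 14 above 0 (41.7% of all genes). Upward, 0 contractile genes and 1 mural gene passed 2-fold and downward 0 in either, where 46 of all 3480 genes were higher and 33 lower.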

How the data were processed

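Single-cell libraries of fresh and cryopreserved pig skin were used, 1 per condition. The authors deposited UMI counts per gene and barcode, and the submitters' processing notes name Cell Ranger 4.0.0, STAR 2.5.1b and Sscrofa11.1. Of the genes, 16719 were named in the deposited files, 772 from the reference table and 14417 were kept by identifier. Counts were summed over cells (Python 3.11.15, scipy 1.17.1) and divided by the sum's total. Genes needed at least 100 UMIs over the sums compared, counts under 3 were set to 3 in ratios, and ratio intervals are exact conditional binomial ones. TMM (edgeR 4.0.16) and DESeq2 1.42.0 size factors served only as other scalings. Named genes were the 10 highest and lowest by the smaller ratio of both libraries, and the 5 most changed between libraries. The study describes scatter gating against doublets in its sorting, with magnetic beads as an alternative way to remove dead cells. Scrublet (scanpy 1.11.5) marked 10 fresh and 40 cryopreserved cells, 1 and 2 of them members, and none were removed. The members and gene lists were chosen with earlier results of these data known. The ratio step was checked on simulated counts. Some genes and sequences are not reported here.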

Additional observations from a re-analysis of the deposited data

Results flagged for a closer look

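Only listed and named genes with at least 100 UMIs in each kind of mural cell were searched here. The following of these had a cryopreserved over fresh log2 ratio of opposite sign in RGS5-leading and ACTA2-leading mural cells, each beyond its counting interval. The difference was not tested, and 1 fresh member held 35.9% of the EGR1 and 1 held 66.2% of the CCL19 member UMIs. FOSB was at 0.81 in the members and -0.48 in ACTA2-leading cells, EGR1 at 1.19 and -0.42, NR4A1 at 0.18 and -0.33, and KLF6 at 0.31 and -0.38. IL6 was at -0.63 and 0.66, ICAM1 at -0.31 and 0.52, and CCL19 at -1.83 and 1.44. MYH11 was at 0.21 and -0.14, KCNJ8 at -0.25 and 0.47, and CYTB at 0.13 and -0.14. Outside the maxima for genes, UMIs and mitochondrial share, 10 fresh and 3 cryopreserved barcodes also met the RGS5 rule, and these were used in no comparison.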

How the results depend on the processing

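No paired analysis was possible because each condition has 1 library. The share of members was 3.79% cryopreserved with at least 10 RGS5 UMIs, 2.96% fresh and 3.10% cryopreserved with RGS5 at least 2 times ACTA2, and 3.07% fresh with no mitochondrial limit. Genes 2-fold higher and lower than in ACTA2-leading cells numbered 190 and 124 of 8511 with at least 30 UMIs, and 38 and 21 of 2444 with at least 300. In the main setting they numbered 83 and 55 of 5129. Between libraries within the members, genes 2-fold higher and lower numbered 28 and 18 of 3284 without the highest doublet scores. They numbered 238 and 177 of 6742 with at least 30 UMIs and 14 and 2 of 1373 with at least 300. Without the top cell of each gene they numbered 26 and 16 of 3272. Without cells with other-lineage or division UMIs, an alternative chosen after seeing the data, they numbered 22 and 15 of 3215. The main setting gave 46 and 33 of 3480. The ratio of PDZRN4 reversed to 2.41 with RGS5 at least 2 times ACTA2, 0.56 without the highest doublet scores, 1.08 without its top cell and 0.59 without other-lineage cells, and that of SLA-DRB1 to -0.47 and -0.14 under the last pair of settings. Of the other summary values 70 stayed close, and of the values of single genes 656 did and 80 moved. The causes were not tested. Depth limits genes under 100 UMIs, and no spread between animals or libraries is known.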
